A study of Homo sapiens with 12 samples.

Results

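Axon guidance ligands and their receptors were followed in cells treated with an inhibitor of the TEAD transcription factors. The set holds every gene of the semaphorin, plexin, neuropilin, ephrin, Eph, Slit, Robo, netrin and UNC5 families whose symbol was in both count tables, chosen by name and not by level. It came to 68 of 27064 symbols, 35 of them ligands and 33 receptors. RNA sequencing libraries of 2 established human cancer cell lines were compared, NCI-H226, from a pleural mesothelioma and written H226 here, and ACHN, from a kidney cancer. According to the submitters both are deficient in NF2, the gene of the Hippo pathway regulator merlin, so that the controls carry this defect as well as the treated cells. Each line was kept overnight with 100 nM SWTX-143, an irreversible TEAD inhibitor, or with DMSO, the solvent, and each of the 4 groups held 3 libraries. Nothing in the labels says that replicate libraries came from separate cultures. The p-values therefore set a difference only against the spread among these libraries, and that spread may be technical. Each line is a single cell line, and in bulk RNA fewer cells of a kind and less RNA per cell cannot be told apart.

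These families were named for steering growing nerve fibres, and they also guide migration, adhesion, tissue boundaries and vessel growth in other organs. Semaphorins bind plexins, and the secreted class 3 semaphorins do so mostly through neuropilins, which lack a signalling domain of their own. Ephrins are bound to the cell surface, by a lipid anchor in the A class and by a membrane-spanning segment in the B class, and signal to Eph receptor tyrosine kinases on the neighbouring cell and back into their own cell. Slits are secreted ligands of Robo receptors, and netrins bind UNC5 receptors, DCC and neogenin.

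Total counts ran from 9690980 to 11262663 per library in H226 and from 10113810 to 11206457 in ACHN. Levels are CPM, counts scaled per library, on library sizes scaled over all 12 libraries, and effects are log2 fold changes of SWTX-143 against DMSO from edgeR's quasi-likelihood test, fitted over all genes of a line. A gene was called where its Benjamini-Hochberg adjusted p was under 0.05 over all genes tested, and only called genes are written as risen or fallen. Values after ± are the SD of a CPM level (n = 3 libraries) or the SE of a log2 fold change. The drug's known readouts fell in both lines: among 10 YAP/TEAD target genes, 10 were lower in H226 and 9 in ACHN, with CTGF at −2.53 ± 0.08 and −2.39 ± 0.06, CYR61 at −1.41 ± 0.04 and −1.28 ± 0.04, and ANKRD1 at −2.09 ± 0.15 and −1.38 ± 0.11. All 10 mesothelial markers had counts in H226, and LRRN4 among them was also high in ACHN (177 ± 0.344 CPM under DMSO). The kidney markers PAX8 (393 ± 9.15 CPM) and PAX2 (81.3 ± 0.711 CPM) were high in ACHN under DMSO and at most 1.19 ± 0.0584 CPM in H226, CDH16 was at 14.3 ± 0.373 CPM in ACHN and 0.0317 ± 0.0550 CPM in H226, and EMX2 had no count in either line. LHX1 did not separate the lines as far and rose in both, from 8.02 ± 0.717 to 15.1 ± 0.798 CPM in H226 (0.88 ± 0.12, adjusted p = 1.6e-08) and from 13.7 ± 1.46 to 22.0 ± 1.1 CPM in ACHN (0.68 ± 0.09, adjusted p = 1.09e-07). CDH16 (0.53 ± 0.09) and CA12 (3.31 ± 0.332 to 7.86 ± 0.558 CPM, 1.24 ± 0.16) rose in ACHN, while CA12 was at 1.86 ± 0.405 and 2.58 ± 0.718 CPM in H226 without a call. Summed over a marker list, the 10 mesothelial genes stood at 8010 to 8550 CPM under DMSO and 8810 to 9110 under SWTX-143 in H226, and at 217 to 219 and 185 to 195 CPM in ACHN. The 6 neuronal genes summed to 46.7 to 49.0 and 52.4 to 54.8 CPM in H226 and 341 to 347 and 358 to 380 CPM in ACHN, nearly all from TUBB3 and SYT1, with STMN2 at 0 in all libraries. Endothelial genes summed to 5.81 to 6.26 and 7.11 to 8.27 CPM in H226 and at most 0.551 CPM in ACHN, leukocyte genes to at most 3.86 CPM with PTPRC at 0, and fibroblast genes to 1100 to 1120 and 1180 to 1200 CPM in H226 and at most 7.27 CPM in ACHN, nearly all from COL1A1, with COL1A2 at 0. The part of these markers in the results below was not tested.

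Each of the 9 families had at least 1 member tested in each line, and levels are given here under DMSO. Compared between genes per kilobase of exon, the highest ligand was SEMA3C, a secreted class 3 semaphorin, in both lines, at 45.0 ± 0.970 CPM per kilobase in H226 and 121 ± 6.80 in ACHN. It was followed in H226 by the B-class ephrin EFNB1 (29.5 ± 1.95) and the membrane-spanning semaphorin SEMA5A (18.9 ± 1.23), and in ACHN by the netrin NTN4 (15.1 ± 0.441) and the class 4 semaphorin SEMA4B (14.9 ± 0.925). NTN4 and SEMA4B in ACHN did not differ beyond their spread. The highest receptors in H226 were PLXNB2, the receptor of class 4 semaphorins (58.8 ± 1.2), the ephrin-A receptor EPHA2 (54.9 ± 1.28) and the netrin receptor UNC5B (44.9 ± 1.12). In ACHN they were EPHA2 (50.3 ± 0.963) and PLXNB2 (49.0 ± 1.60), whose spreads overlapped, and EPHA7 (23.4 ± 0.880).

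**Figure D1:**
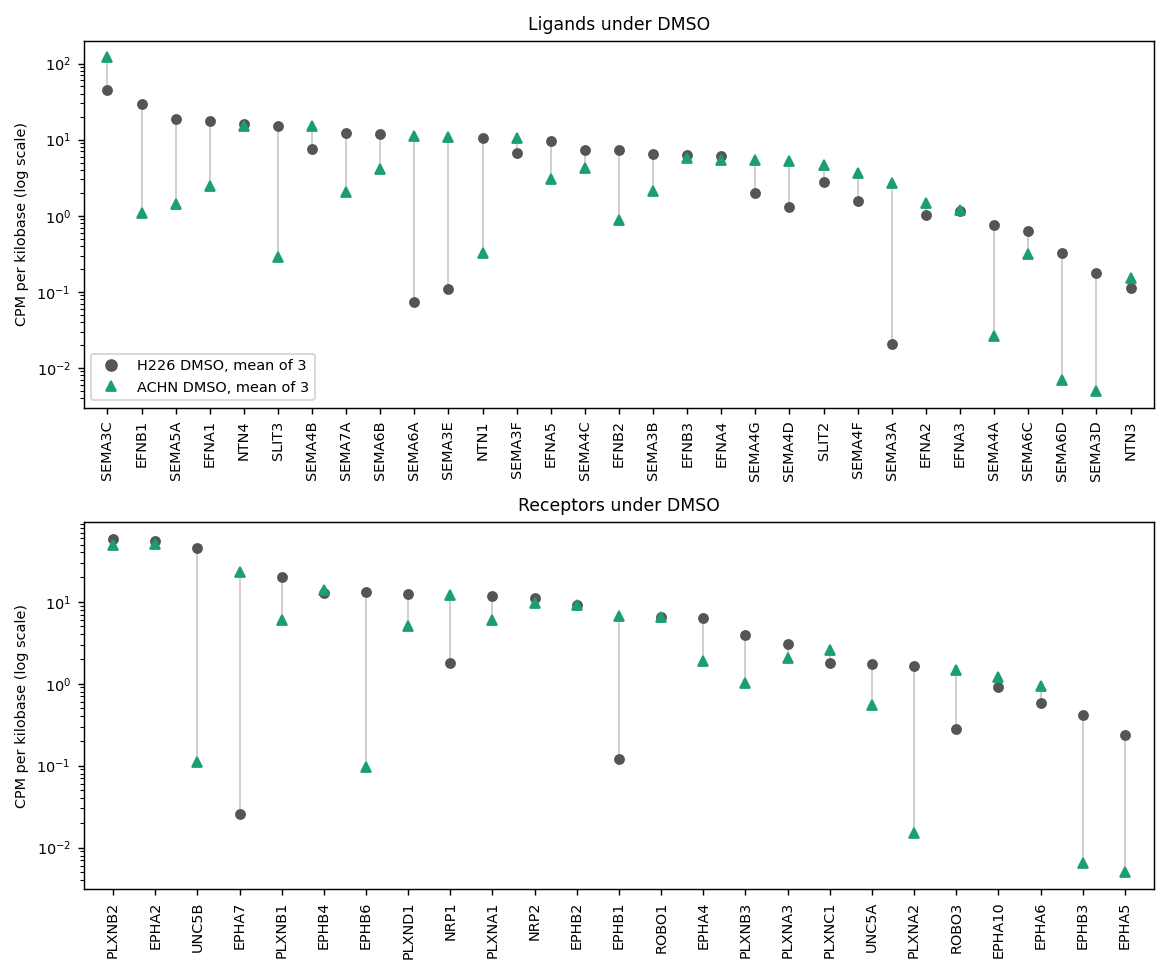
Mean level under DMSO in CPM per kilobase of exon (log axis) of the 31 ligands and 25 receptors with at least 0.1 in either line, H226 as circles and ACHN as triangles, each the mean of 3 libraries, with a mean of 0 drawn at 0.005. SEMA3C leads the ligands in both lines, and UNC5B, EPHA7, EPHB6, EPHB1, SEMA6A and SEMA3E lie far apart between the lines.

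The lines differed in which members they carried. Of 55 members tested between the DMSO groups, 30 were higher in H226 and 18 higher in ACHN, where 42.2% of all 14664 genes tested were higher in H226 and 42.2% higher in ACHN, so that 48 of 55 stood near the background. UNC5B was present at 311, 298 and 312 CPM in the H226 DMSO libraries and at 0.826, 0.558 and 0.869 CPM in those of ACHN (log2 difference 8.65 ± 0.09, adjusted p = 1.07e-80). EPHB6, an Eph receptor without kinase activity, was at 74.3, 67.4 and 66.9 against 0.459, 0.743 and 0.348 CPM (7.06 ± 0.14, adjusted p = 3.24e-60), and the Slit ligand SLIT3 at 217, 214 and 225 against 3.76, 3.44 and 4.96 CPM (5.75 ± 0.08, adjusted p = 4.4e-73). The reverse held for EPHA7, at 0.281, 0.190 and 0.110 CPM in H226 against 182, 172 and 169.8 CPM in ACHN (−9.70 ± 0.14, adjusted p = 4.93e-72). SEMA6A, a membrane-spanning semaphorin, was likewise low in H226 and high in ACHN, at 0.938, 0.857 and 0.659 against 114, 126 and 122 CPM (−7.17 ± 0.12, adjusted p = 1.24e-66). None of these 5 genes overlapped between the lines. They were chosen as examples after their values were seen, and other called members differed by as much, such as SEMA3A (−6.89 ± 0.23), PLXNA2 (6.67 ± 0.25) and SEMA3E (−6.60 ± 0.13). Of the 55 members, 42 passed the count filter in each line on its own. The others, UNC5B, EPHB6, EPHA7 and SEMA6A among them, passed it through the line where they were higher, which favoured a call. The lines came as separate tables, so the line and its handling cannot be told apart.

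Under SWTX-143, more members rose than fell in H226, while in ACHN fewer were called, with a balance of rises and falls that depended on the scaling. In H226, 50 members were tested, of which 24 rose and 8 fell, against a background of 19% of all 13484 genes higher and 21.6% lower. Their median log2 fold change was 0.20, beside −0.001 over all tested genes, and their median absolute change 0.28, beside 0.18. In ACHN, 47 members were tested, of which 7 rose and 11 fell, against 8.43% and 9.37% of all 13483 genes, with a median of 0.05, beside 0.001, and a median absolute change of 0.14, beside 0.10. The ACHN split was 8 higher and 8 lower with upper-quartile factors and 9 and 8 with library size alone. The same scalings moved the split over all genes from 2567 higher and 2919 lower to 3283 and 2324 or 3110 and 2419 in H226, and from 1137 and 1264 to 1450 and 1028 or 1537 and 977 in ACHN. By role, 13 of 27 tested ligands rose and 4 fell in H226, with 11 and 4 of 23 receptors, and 2 ligands rose and 7 fell of 27 in ACHN, with 5 and 4 of 20 receptors. In all 32 called members of H226 the 3 treated libraries lay on one side of the 3 DMSO libraries. The same held for 17 of 18 in ACHN, with PLXNB2 the exception. Such a separation was not counted over all called genes, so these counts show nothing particular to the members.

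A stricter test called fewer members. Asked for a change of more than 1.2-fold, the test called 11 members higher and 4 lower of 50 in H226. In ACHN it called 2 higher and 4 lower of 47. Over all genes it called 843 higher and 953 lower of 13484 in H226, and 107 and 208 of 13483 in ACHN. A member that failed this test was not shown to change by less. EPHA6 in H226 (0.51, adjusted p = 0.156) and EPHA4 in ACHN (−0.44, 0.401) failed it. The share of all counts assigned to the 68 genes went from 0.329% to 0.341% under DMSO to 0.381% to 0.396% under SWTX-143 in H226. Without UNC5B and PLXNB2, which both rose in H226, the H226 shares were 0.261% to 0.272% and 0.282% to 0.295%. Without the same 2 genes, the ACHN shares were 0.289% to 0.294% and 0.282% to 0.287%. With all 68 genes, the ACHN share went from 0.327% to 0.330% to 0.316% to 0.321%. The DMSO and treated libraries of each line did not overlap in this share, being higher under the drug in H226 and lower in ACHN. The separation in ACHN rested on SEMA3C: without it, a choice made after seeing the data, the ACHN shares were 0.246% to 0.253% and 0.247% to 0.250%, which overlap, and those of H226 0.303% to 0.314% and 0.350% to 0.365%.

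**Figure D2:**
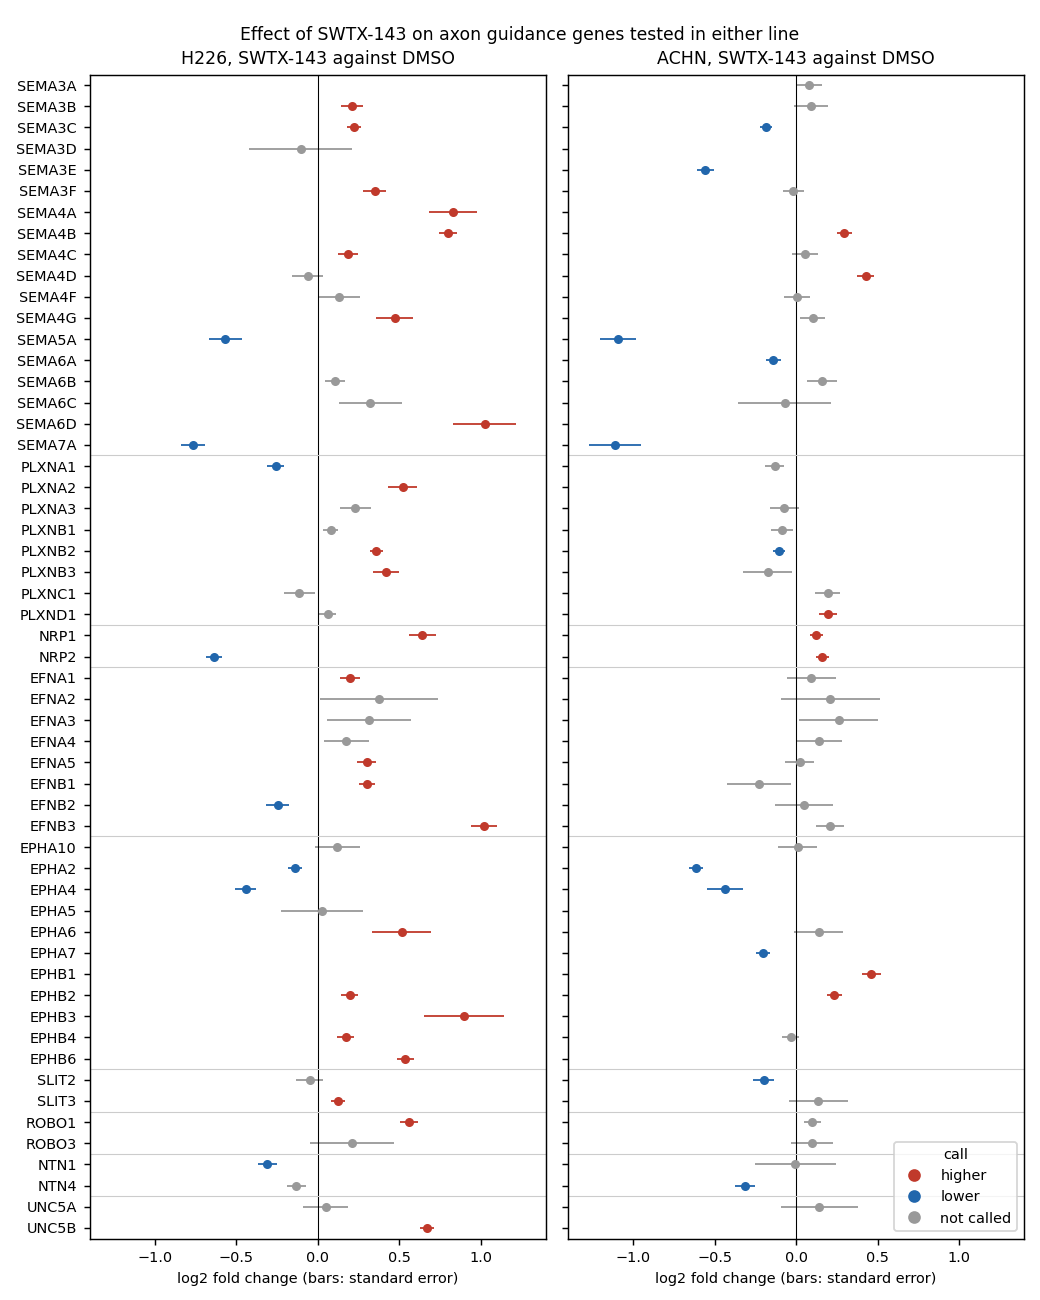
Log2 fold change of SWTX-143 against DMSO with its standard error for the members tested in either line, H226 on the left and ACHN on the right, coloured by whether the gene was called higher (red), lower (blue) or not called (grey). SEMA5A and SEMA7A lie to the left of 0 in both lines, the 4 tested EphB receptors to the right in H226, and the ephrins of ACHN are all grey.

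The counts by family and class below stand beside 19% higher and 21.6% lower of all tested genes in H226, and 8.43% and 9.37% in ACHN. No family or class was tested against these shares. Semaphorin ligands were called in both directions. In H226, 8 of 15 tested semaphorins rose and 2 fell, and in ACHN 2 rose and 5 fell. The 2 that fell in H226 were SEMA7A and SEMA5A, which also had the largest falls among the members in ACHN. SEMA7A is the lipid-anchored semaphorin, which binds integrins and plexin C1. It was at 42.9, 47.2 and 49.1 CPM in the H226 DMSO libraries and at 25.4, 28.5 and 29.2 CPM in the treated ones (1.70-fold lower, log2 fold change −0.77 ± 0.07, adjusted p = 4.48e-13). In ACHN it went from 7.89, 7.81 and 7.65 to 3.34, 4.38 and 3.12 CPM (2.16-fold lower, −1.11 ± 0.16, adjusted p = 3.26e-07). Every treated library was below every DMSO library in both lines, and the lines differed more from each other under DMSO than either changed.

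SEMA5A carries thrombospondin repeats beside its semaphorin domain. It stood at 244, 214 and 227 CPM under DMSO and 151, 142 and 177 CPM under SWTX-143 in H226 (−0.57 ± 0.10, adjusted p = 0.00615), the third treated library being the highest of its group and still below all DMSO libraries. In ACHN, where it was scarcer, it fell from 15.8, 18.6 and 17.5 to 8.36, 7.73 and 8.15 CPM (2.13-fold lower, −1.09 ± 0.11, adjusted p = 1.9e-11). Both falls were called under each alternative tried.

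Among class 4 semaphorins, membrane-spanning ligands of B-type plexins, 4 of 6 tested rose in H226 and 2 of 5 in ACHN. SEMA4B was at 51.7, 55.0 and 52.2 CPM under DMSO and 98.1, 92.7 and 91.4 CPM under the drug in H226 (1.74-fold higher, 0.80 ± 0.06, adjusted p = 3.89e-18). In ACHN it rose from 97.5, 107 and 110.0 to 133, 126 and 127 CPM (0.30 ± 0.05, adjusted p = 2e-06), and the highest treated H226 library was just above the lowest ACHN DMSO library. SEMA4A, scarce in H226, went from 6.00, 4.47 and 5.16 to 9.62, 9.30 and 9.50 CPM (0.83 ± 0.15, adjusted p = 4.78e-06) and was at most 0.373 CPM in any ACHN library. SEMA4D, the plexin B1 ligand, rose in ACHN from 75.3, 74.6 and 74.1 to 102, 95 and 103 CPM (0.43 ± 0.05, adjusted p = 1.41e-09), while the H226 libraries overlapped (−0.06 ± 0.09, adjusted p = 0.628). The remaining rises were SEMA4G (0.47 ± 0.11) and SEMA4C (0.19 ± 0.06) in H226. SEMA4G shares 22.27% of its exon bases with MRPL43, which had 2821 counts in H226 beside 780 for SEMA4G, and without a stated strand their reads cannot be told apart. The SEMA4C call was lost without H226 DMSO replicate 2 (0.17, adjusted p = 0.0581) and with DESeq2 (0.20, 0.0613).

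The secreted class 3 semaphorins, which repel or attract cells through neuropilins and A-type plexins, differed between the lines in which were called. In H226, 3 of 4 tested rose, SEMA3F (32.3 ± 1.75 to 41.9 ± 1.08 CPM, 0.35 ± 0.07, adjusted p = 4.05e-05), SEMA3C (282 ± 6.08 to 335 ± 19.0 CPM, 0.22 ± 0.04, adjusted p = 2.13e-05) and SEMA3B (0.21 ± 0.07). In ACHN, 2 of 5 fell. SEMA3E, a plexin D1 ligand, was at 93.2, 84.8 and 95.5 CPM under DMSO and 58.8, 66.0 and 61.6 CPM under SWTX-143 (1.47-fold lower, −0.56 ± 0.05, adjusted p = 6.03e-12), with no overlap. SEMA3C, the most abundant ligand, fell there from 756 ± 42.6 to 665 ± 32.6 CPM (−0.19 ± 0.04, adjusted p = 0.000173). SEMA3F overlaps its antisense gene SEMA3F-AS1, which had 468 counts in H226 beside 2288. The SEMA3B call did not hold without H226 DMSO replicate 2 (0.17, adjusted p = 0.0747), without treated replicate 2 (0.18, 0.0570) or with DESeq2 (0.22, 0.0565).

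Of class 6, SEMA6D, a plexin A1 ligand, rose in H226 from 2.91, 3.05 and 2.42 to 6.51, 4.88 and 6.12 CPM (2.03-fold higher, 1.02 ± 0.19, adjusted p = 1.39e-05). It was close to absent from ACHN, with 2 counts over all 6 libraries. SEMA6A fell in ACHN from 121 ± 6.13 to 109.6 ± 1.41 CPM (−0.14 ± 0.05, adjusted p = 0.0246), a call lost in 8 of 13 alternatives. Among these were upper-quartile scaling (−0.12, adjusted p = 0.0683), library size alone (−0.11, 0.0837), DESeq2 (−0.14, 0.0830) and the omission of ACHN DMSO replicate 2 (−0.10, 0.202), DMSO replicate 3 (−0.13, 0.0970), treated replicate 1 (−0.13, 0.101) or treated replicate 2 (−0.14, 0.0517). Its antisense gene SEMA6A-AS1, which overlaps 2.45% of its exon bases, had 556 counts in ACHN beside 7753. SEMA6B and SEMA6C were not called in either line.

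**Figure D3:**
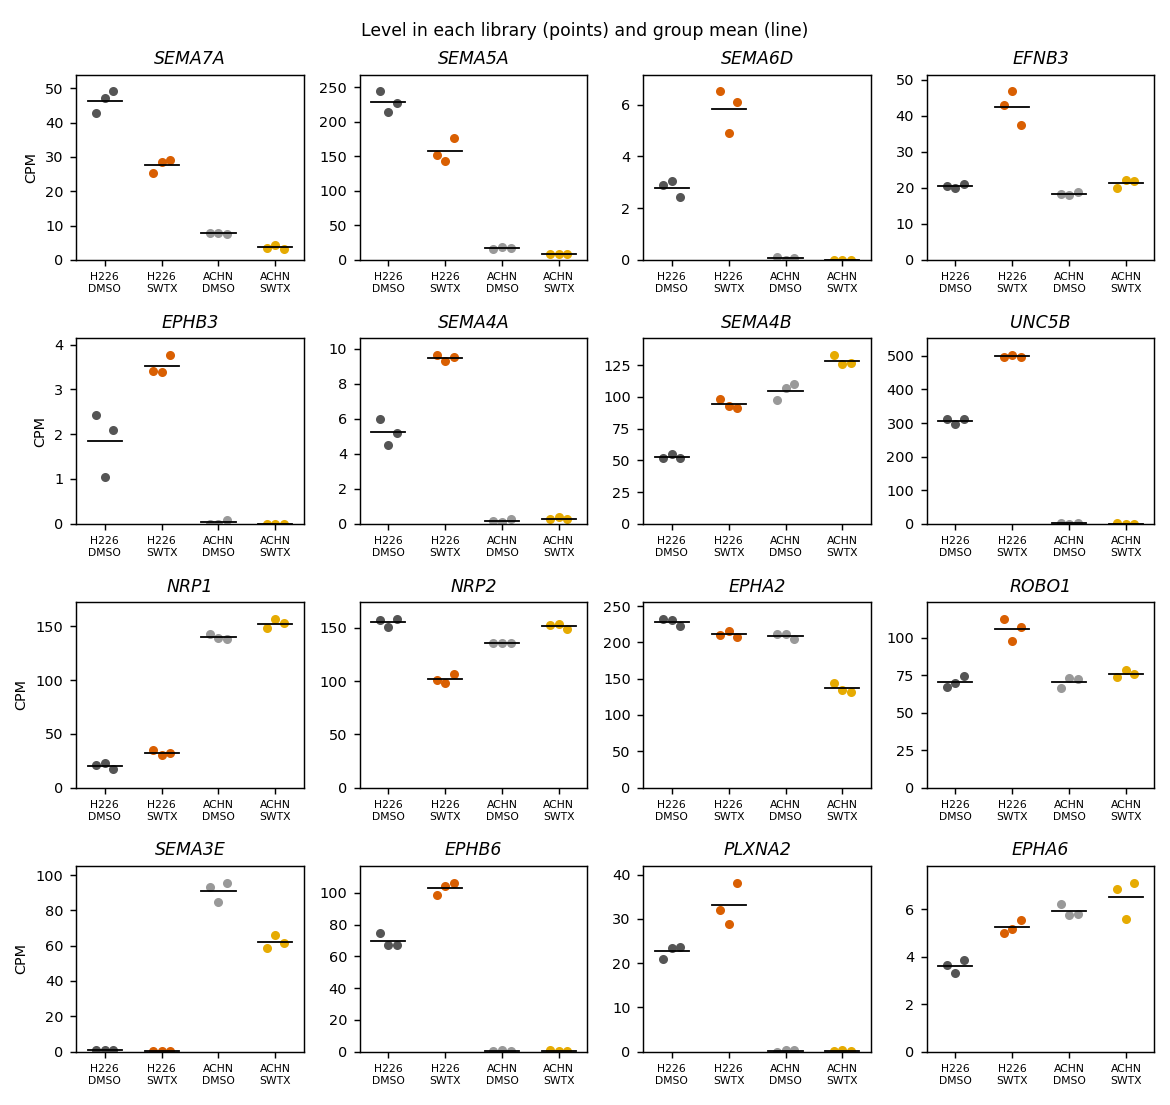
Level in CPM of the 16 members called in either line with an absolute log2 fold change of at least 0.5 and a mean of at least 1 CPM, 1 panel per gene with its own linear axis from 0, points for the 3 libraries of each of the 4 groups and a line for the group mean. The treated H226 libraries lie above or below all H226 DMSO libraries in each panel of a gene called there, and NRP2 moves in opposite directions in the lines.

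The neuropilins, co-receptors of class 3 semaphorins and of VEGF, moved in opposite directions in H226. NRP1 was at 20.9, 22.5 and 17.8 CPM under DMSO and 35.1, 30.7 and 32.1 CPM under SWTX-143 (1.56-fold higher, 0.64 ± 0.08, adjusted p = 5.83e-09). NRP2 fell from 157, 151 and 158 to 101, 98.3 and 107 CPM (1.55-fold lower, −0.64 ± 0.05, adjusted p = 2.51e-16). The NRP1 libraries of H226 stayed far below those of ACHN, whereas NRP2 under DMSO was only slightly higher in H226 than in ACHN (0.20 ± 0.05).

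In ACHN both neuropilins rose slightly. NRP2 went from 135, 136 and 136 to 152, 154 and 149 CPM (0.16 ± 0.04, adjusted p = 0.00333), above all DMSO libraries. NRP1 went from 140.0 ± 2.91 to 153 ± 4.26 CPM (0.12 ± 0.04, adjusted p = 0.0301), and this call was lost in 7 of 13 alternatives, among them DESeq2 (0.12, adjusted p = 0.0893) and the omission of ACHN DMSO replicate 2 (0.12, 0.0762), DMSO replicate 3 (0.11, 0.148), treated replicate 2 (0.11, 0.120) or treated replicate 3 (0.12, 0.0620).

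Plexins, the signalling receptors of the semaphorins, had 3 rises and 1 fall among 8 tested in H226 and 1 of each among 7 in ACHN. PLXNB2, the most abundant receptor, rose in H226 from 417, 429.5 and 433 to 563, 552 and 557 CPM (0.36 ± 0.04, adjusted p = 3.51e-11). PLXNA2 rose from 20.9, 23.3 and 23.7 to 32.0, 28.9 and 38.1 CPM (0.52 ± 0.09, adjusted p = 1.56e-05) and was at most 0.348 CPM in ACHN. PLXNB3 also rose (27.5 ± 0.643 to 37.4 ± 4.66 CPM, 0.42 ± 0.08), with 20.44% of its exon bases shared with SRPK3, a gene of 62 counts beside 2007. PLXNA1 fell (127 ± 3.15 to 108 ± 6.55 CPM, −0.26 ± 0.05).

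In ACHN, PLXND1, the receptor of SEMA3E, rose from 49.0 ± 0.345 to 56.1 ± 2.31 CPM (0.20 ± 0.06, adjusted p = 0.0117), but not with DESeq2 (0.19, adjusted p = 0.0652) or without treated replicate 2 (0.17, 0.0724). PLXNB2 was called lower there (344, 367 and 357 to 347, 323 and 322 CPM, −0.11 ± 0.04, adjusted p = 0.0418). Its highest treated library was above its lowest DMSO library. The call was lost in 10 of 13 alternatives, among them DESeq2 (−0.11, adjusted p = 0.0854), both other scalings (−0.08, 0.124 and −0.08, 0.155) and the omission of DMSO replicate 2 (−0.08, 0.249), DMSO replicate 3 (−0.10, 0.135), treated replicate 2 (−0.09, 0.179) or treated replicate 3 (−0.09, 0.147).

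Of the 8 ephrins, 4 rose and 1 fell in H226. In ACHN edgeR called 0 of 8, 1 had an unadjusted p under 0.05 and DESeq2 called 0. EFNB3, a B-class ephrin best known as a midline barrier in the nervous system, was at 20.6, 20.1 and 21.0 CPM in the H226 DMSO libraries and 43.1, 46.8 and 37.4 CPM in the treated ones (2.02-fold higher, 1.02 ± 0.08, adjusted p = 4.99e-16). In ACHN its treated libraries were also above all DMSO libraries, at 19.9, 22.2 and 21.8 against 18.2, 18.1 and 18.8 CPM, without a call (0.21 ± 0.09, adjusted p = 0.0858), and it passed there with library size alone (0.24, adjusted p = 0.0443). In H226, EFNB1 (97.7 ± 6.45 to 123 ± 4.18 CPM, 0.30 ± 0.05), EFNA5 (54.8 ± 1.94 to 68.8 ± 3.01 CPM, 0.30 ± 0.06) and EFNA1, a ligand of EPHA2 (45.0 ± 1.57 to 52.6 ± 1.49 CPM, 0.20 ± 0.06), rose by less. EFNB1 was scarce in ACHN, and its treated libraries were all lower there, at 2.84, 3.36 and 2.95 against 3.49, 3.44 and 3.74 CPM. It was not called (−0.23 ± 0.20, adjusted p = 0.491). EFNB2, the arterial ligand of the venous receptor EPHB4, fell in H226 from 36.7 ± 0.520 to 31.6 ± 2.67 CPM (−0.25 ± 0.07, adjusted p = 0.0046), a call lost with DESeq2 (−0.24, 0.0534) and without treated replicate 3 (−0.18, 0.0548). EFNA3 and EFNA4 share 44.68% and 14.96% of their exon bases with AL691442.1, an annotated gene on the same strand that was not used here, and were not called.

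Eph receptors are given by class. Of the EphB receptors, which bind B-class ephrins, 4 of 4 tested rose in H226 and 2 of 3 in ACHN. Of the EphA receptors, 1 rose and 2 fell among 5 in H226, and 3 fell among 5 in ACHN. EPHB6 was at 74.3, 67.4 and 66.9 CPM under DMSO and 98.7, 104 and 106 CPM under SWTX-143 in H226 (1.45-fold higher, 0.54 ± 0.05, adjusted p = 3.7e-12). EPHB3, scarce throughout, went from 2.44, 1.05 and 2.09 to 3.41, 3.38 and 3.76 CPM (0.90 ± 0.25, adjusted p = 0.00264). Its second DMSO library was the lowest of that group, and without it the rise was 0.60 and not called (adjusted p = 0.0636). EPHB2, a receptor kinase for B-class ephrins, rose in both lines, from 115 ± 6.20 to 134 ± 5.73 CPM in H226 (0.20 ± 0.05) and from 114 ± 0.905 to 134 ± 5.77 CPM in ACHN (0.24 ± 0.04). EPHB4 rose in H226 (0.17 ± 0.05), except without DMSO replicate 1 (0.14, adjusted p = 0.050). EPHB1 rose in ACHN from 44.8, 47.8 and 46.9 to 62.9, 65.9 and 63.5 CPM (1.38-fold higher, 0.46 ± 0.06, adjusted p = 6.73e-09). It is the EphB receptor not tested in H226, where it had only 38 counts. Its treated H226 libraries were all lower, at 0.300, 0.564 and 0.282 against 1.12, 0.762 and 0.659 CPM under DMSO.

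EPHA2, an abundant epithelial Eph receptor, was at slightly higher levels in untreated H226 than in untreated ACHN (0.13 ± 0.04). In ACHN it fell from 212, 211 and 204 to 144, 134 and 132 CPM (1.53-fold lower, −0.61 ± 0.04, adjusted p = 1.08e-17), a clear gap between the groups. In H226 the step was small, from 232, 231 and 222 to 209.6, 216 and 208 CPM (−0.14 ± 0.04, adjusted p = 0.0057), and was not called with upper-quartile scaling (−0.09, adjusted p = 0.0796). EPHA4, which binds ephrins of both classes, fell in both, from 47.4 ± 2.11 to 35.6 ± 1.88 CPM in H226 (−0.44 ± 0.07, adjusted p = 1.9e-07) and from 14.3 ± 0.745 to 10.6 ± 1.28 CPM in ACHN (−0.44 ± 0.11, adjusted p = 0.0027). EPHA7 fell in ACHN (182, 172 and 169.8 to 149, 163 and 144 CPM, −0.20 ± 0.04). EPHA6 rose in H226 from 3.66, 3.33 and 3.84 to 5.01, 5.17 and 5.55 CPM (0.51 ± 0.18, adjusted p = 0.0182), but not with DESeq2 (0.52, 0.112), without DMSO replicate 2 (0.45, 0.0771) or without treated replicate 3 (0.47, 0.0565).

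In the Slit system, the receptor ROBO1 rose in H226. Its libraries were at 67.0, 69.8 and 74.6 CPM under DMSO and 112, 97.5 and 107 CPM under SWTX-143 (1.47-fold higher, 0.56 ± 0.06, adjusted p = 4.06e-12). Under DMSO the lines did not differ by call (0.00 ± 0.06) except with library size alone, and the ACHN step from 66.3, 73.4 and 72.8 to 73.6, 78.7 and 75.7 CPM was not called (0.10 ± 0.05, adjusted p = 0.21). The ligands moved little: SLIT3 rose in H226 (219 ± 5.62 to 243 ± 9.59 CPM, 0.12 ± 0.04, adjusted p = 0.0198) and SLIT2 fell in ACHN (44.5 ± 2.48 to 38.7 ± 1.63 CPM, −0.20 ± 0.06, adjusted p = 0.023). The SLIT3 call was lost without H226 DMSO replicate 2 (0.10, adjusted p = 0.102) and without treated replicate 3 (0.09, 0.106). The SLIT2 call was lost in 7 of 13 alternatives, among them DESeq2 (−0.20, 0.105), upper-quartile scaling (−0.18, 0.0513), library size alone (−0.17, 0.0575) and the omission of ACHN DMSO replicate 2 (−0.15, 0.173), treated replicate 1 (−0.19, 0.0733) or treated replicate 2 (−0.17, 0.100).

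In the netrin system, UNC5B, a dependence receptor that also acts in vessels, rose in H226 from 311, 298 and 312 to 495, 502 and 497 CPM (1.59-fold higher, 0.67 ± 0.04, adjusted p = 1.46e-20). The 3 libraries of each group lay close together and far from the other group, and the gene was at most 0.869 CPM in any ACHN library. NTN1, the founding netrin, fell in H226 from 67.8 ± 2.89 to 55.7 ± 0.923 CPM (−0.31 ± 0.06, adjusted p = 1.23e-05) and was near 2.08 ± 0.0593 CPM in ACHN without a call. NTN4, a basement membrane netrin, fell in ACHN from 62.8 ± 1.84 to 50.5 ± 4.43 CPM (−0.31 ± 0.06, adjusted p = 6.5e-05), while in H226 it was not called (−0.13 ± 0.06, adjusted p = 0.0644). UNC5A was not called in either line.

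Promoter windows were read for the called members, since TEAD factors bind the core GGAATG and often act beside AP-1. RefSeq windows of GRCh38.p14, from 250 bases before a start to 50 after it, were found for 58 of the 68 members, 90 windows in all. GGAATG stood on either strand in 10 of the 90 windows (11.1%), beside 14% of all 35116 windows, and the AP-1 site TGANTCA in 1 (1.11%), beside 7.71%, with no overlap of the 2 motifs in a member window. By gene, GGAATG was in 16.7% of all genes with a window and 13.8% of the 58 members. It was in 4 of 21 members that rose (19%) and 1 of 7 that fell (14.3%) in H226, and in 0 of 6 that rose and 2 of 10 that fell (20%) in ACHN, counts of 4 genes or fewer. Printed below is each stretch of a called member with the core before its start and outside annotated exons, 5′ to 3′ in the direction of the gene, with the core, or its complement where it lies on the other strand, in capitals. The EPHA2 stretch (chr1:16156110-16156169, minus strand) lies in an intron of the antisense gene AL451042.2. The PLXNB3 stretch (chrX:153764000-153764059, plus strand) lies in an intron of U52111.1 on the other strand, and the SEMA3B stretch, from 1 of its 5 starts (chr3:50267460-50267519, plus strand), lies in no annotated transcript.
EPHA2: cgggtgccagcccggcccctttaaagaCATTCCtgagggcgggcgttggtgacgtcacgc
PLXNB3: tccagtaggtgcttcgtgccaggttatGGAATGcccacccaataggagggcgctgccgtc
SEMA3B: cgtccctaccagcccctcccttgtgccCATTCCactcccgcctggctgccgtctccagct
The cores begin 73, 222 and 165 bases before the start. EPHA2 was the only member that fell in H226 whose window held the core, and PLXNB3 and SEMA3B rose there. Binding was not measured.

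Whether the lines responded differently was tested in a joint fit of all 12 libraries, as the H226 effect minus the ACHN effect. Of 55 members tested, 10 had a positive difference and 4 a negative one, beside 5.89% and 9.7% of all 14664 genes. The clearest was NRP2, lower in H226 and higher in ACHN (difference −0.80 ± 0.06, adjusted p = 2.19e-17). PLXNB2 (0.46 ± 0.06, adjusted p = 5.57e-10) and SEMA3C (0.40 ± 0.06, adjusted p = 2e-07) had the opposite pattern, a rise in H226 and a fall in ACHN. The PLXNB2 call in ACHN was lost in 10 of 13 alternatives. For EFNB3 (0.80 ± 0.12, adjusted p = 1.77e-07), NRP1 (0.51 ± 0.09), SEMA4B (0.50 ± 0.07), ROBO1 (0.45 ± 0.08) and SEMA3F (0.36 ± 0.09) the rise in H226 was larger than the change in ACHN. EPHA2 (0.47 ± 0.06, adjusted p = 3.38e-09) and SEMA5A (0.52 ± 0.15, adjusted p = 0.0217) fell further in ACHN, and SEMA4D (−0.49 ± 0.10, adjusted p = 0.000162) rose in ACHN without a call in H226.

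Of the remaining differences, those of EPHB1 and SEMA3E rested on few counts in H226. EPHB1 (−1.63 ± 0.46, adjusted p = 0.00696) and SEMA3E (−1.92 ± 0.57, adjusted p = 0.0115) were too scarce for the H226 fit, at 1.12, 0.762 and 0.659 and 1.12, 0.857 and 0.769 CPM under DMSO and 0.300, 0.564 and 0.282 and 0.100, 0.0940 and 0.282 CPM under SWTX-143. PLXNB3 (0.59 ± 0.17, adjusted p = 0.00976) was below 8 CPM in each ACHN library, but was tested there, with 452 counts in all. The SEMA5A difference was lost in 6 of 18 alternatives: with library size alone (0.54, adjusted p = 0.0749) and without ACHN DMSO replicate 2 (0.47, 0.0567), DMSO replicate 3 (0.51, 0.0566) or treated replicate 1, 2 or 3 (0.55, 0.49 and 0.52; 0.0636, 0.0801 and 0.0809). The PLXNB3 difference was lost without ACHN DMSO replicate 3 (0.50, 0.0670) or treated replicate 2 (0.48, 0.0570). That of EPHB1 was lost without H226 DMSO replicate 1 (−1.33, 0.100), and that of SEMA3E without H226 DMSO replicate 1 (−1.71, 0.0608) or treated replicate 1 (−1.67, 0.0679) or 2 (−1.63, 0.0785). Without H226 DMSO replicate 1, 2 negative differences remained in place of 4.

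Of the 42 members tested in both lines, SEMA4B, EPHB2 and NRP1 were called higher in both and SEMA7A, SEMA5A, EPHA2 and EPHA4 lower in both. NRP2, PLXNB2 and SEMA3C were called in opposite directions. The ACHN calls of PLXNB2 and NRP1 were lost in 10 and 7 of 13 alternatives. A further 13 rose and 3 fell by call in H226 alone, 2 rose and 2 fell in ACHN alone, and 12 were called in neither. Among those called in a single line, the difference between lines was called only for EFNB3, PLXNB3, ROBO1, SEMA3F and SEMA4D. For SEMA7A the difference between the lines was not called (0.34 ± 0.18, adjusted p = 0.201), nor for EPHB2 (−0.05 ± 0.07, adjusted p = 0.74) or EPHA4 (−0.01 ± 0.13, adjusted p = 0.998).

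**Figure D4:**
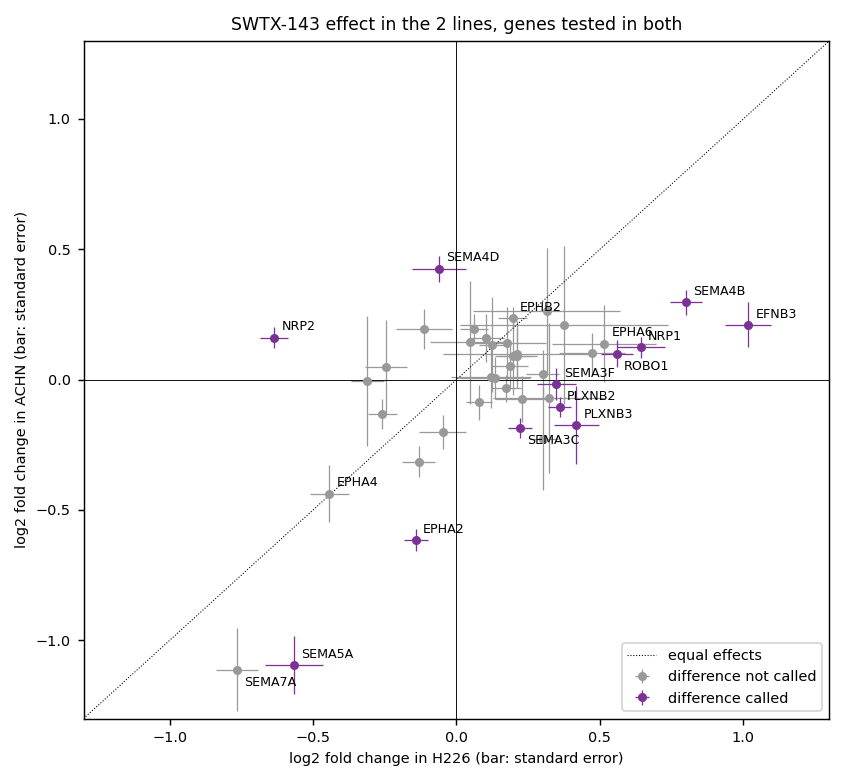
Log2 fold change in H226 (x) against that in ACHN (y) for the 42 members tested in both lines, with standard errors as bars, purple where the difference between lines was called and a dotted line where effects are equal. NRP2 lies upper left of the origin, SEMA7A and SEMA5A lower left, and EFNB3 and SEMA4B on the right below the line of equal effects.

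Partners of these receptors moved in both directions. Of 29 other receptors and cues, 6 rose and 3 fell among 19 tested in H226, and 6 rose and 2 fell among 18 in ACHN. These are 47.4% and 44.4% of those tested, beside 40.7% and 17.8% over all genes. In H226 the heparan sulfate proteoglycan SDC1 fell (174 ± 5.92 to 123 ± 3.72 CPM, −0.54 ± 0.05, adjusted p = 1.91e-14). The adhesion molecule L1CAM, a partner of NRP1, rose (269.7 ± 10.3 to 377 ± 2.51 CPM, 0.46 ± 0.04), as did the netrin receptor neogenin NEO1 (0.30 ± 0.04) and ADAM17, a shedding protease (0.32 ± 0.04). In ACHN the receptor kinase MET (0.19 ± 0.03), SDC3 (0.26 ± 0.05) and NRCAM (0.53 ± 0.10) rose and the ephrin-cleaving protease ADAM10 fell (−0.18 ± 0.04). DCC, the classical netrin receptor, had means of 0 CPM in all groups but the treated H226 libraries (0.0334 CPM).

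Among 52 cytoplasmic effectors, 51 were in the tables. In H226, 9 rose and 4 fell of 46 tested, and in ACHN 13 rose and 5 fell of 47, or 28.3% and 38.3%. The H226 share was below that over all genes and the ACHN share above it. RGS3, which couples to ephrin-B, rose in H226 (84.3 ± 3.34 to 142 ± 2.79 CPM, 0.73 ± 0.05, adjusted p = 3.52e-18), and so did the semaphorin effectors DPYSL2 (0.44 ± 0.05) and DPYSL3 (0.40 ± 0.05), while the kinase FYN fell (309 ± 14.6 to 227 ± 4.37 CPM, −0.47 ± 0.04). In ACHN the exchange factor VAV3 (0.38 ± 0.05), the Ras regulator RASA1 (0.29 ± 0.04) and MICAL2 (0.18 ± 0.04), of the family that oxidizes actin below plexins, rose, and the cofilin kinase LIMK2 fell (35.9 ± 2.65 to 25.6 ± 1.72 CPM, −0.48 ± 0.08, adjusted p = 1.5e-06). The genes named from both lists were those with the smallest p in each line.

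Members below the filter in both lines were 13 of the 68. EPHA3, ROBO2 and UNC5D had 0 counts in all 12 libraries, which allows up to 0.0488 CPM in H226 and 0.0445 CPM in ACHN, as 3 pooled counts and for counting error only. Summed over the 6 libraries of H226 and then of ACHN, the others had 13 and 4 counts for EPHA1, 3 and 0 for EPHA8, 26 and 17 for NTN3, 29 and 4 for NTN5, 17 and 0 for PLXNA4 and 8 and 6 for ROBO4. SEMA3G had 3 and 5, SEMA5B 14 and 16, SLIT1 22 and 15, and UNC5C 6 and 2. These genes were too scarce for the main fits, which give no result for them. In H226, SEMA3A, SEMA6A and EPHA7 were also below the filter, with 21, 67 and 15 counts, beside EPHB1 and SEMA3E. With no filter on low counts, SEMA3E was called lower in H226 (−2.47, adjusted p = 0.000404). In ACHN, UNC5B, EPHB6, PLXNA2 and SEMA4A were below it with 46, 36, 12 and 16 counts, EPHB3 and SEMA6D with 1 and 2, and EPHA5 and SEMA3D had 0.

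SEMA3A, tested in ACHN alone, was not called there. The members called in neither line that were tested in H226 were EFNA2, EFNA3, EFNA4, EPHA10, EPHA5, PLXNA3, PLXNB1, PLXNC1, ROBO3, SEMA3D, SEMA4F, SEMA6B, SEMA6C and UNC5A, with log2 fold changes from −0.11 for PLXNC1 to 0.37 for EFNA2. PLXNA3, PLXNB1 and SEMA6B had all treated H226 libraries above all DMSO libraries without a call, PLXNA3 at 37.4, 32.5 and 36.5 against 40.2, 37.6 and 49.1 CPM (0.23 ± 0.09, adjusted p = 0.0619). All 3 were called higher with upper-quartile scaling (PLXNA3 0.28, PLXNB1 0.13 and SEMA6B 0.15, adjusted p = 0.0190, 0.0201 and 0.0364) and with library size alone (0.27, 0.12 and 0.14, adjusted p = 0.0466, 0.0340 and 0.0495). PLXNA3 was also called with no filter, with the filter at 5 CPM and without H226 DMSO replicate 1 (0.28, 0.0416) or treated replicate 2 (0.31, 0.0033). Without 1 library, EFNA3 passed in H226 (without DMSO replicate 2, 0.73, adjusted p = 0.0461) and so did NTN4 (without DMSO replicate 1, −0.16, 0.0401) and SEMA6A (without treated replicate 2, 0.96, 0.0484). In ACHN, PLXNC1 was called higher with upper-quartile scaling (0.22, adjusted p = 0.0416), library size alone (0.22, 0.0360) and without DMSO replicate 1 (0.25, 0.0354), and PLXNA1 lower without treated replicate 1 (−0.20, 0.0208). Scarce members carried wide errors: EFNA2, at 0.976 ± 0.274 CPM in H226, had 0.37 ± 0.36.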

How the data were processed

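RNA of 12 libraries was sequenced, 3 for each of 4 groups. The authors deposited raw read counts per gene symbol, in 1 table per line. Per the submitters' processing notes, the build was hg19 (GRCh37) and the tools included STAR 2.6.1d, cutadapt and FastQC. Which program counted the reads, with which strand setting, rule for shared reads and annotation, is not given in the sources used here. All depths and levels below start from these counts.

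Each line was fitted with edgeR 4.0.16 in R 4.3.3 (filterByExpr, TMM, robust quasi-likelihood F test, no covariates), with Benjamini-Hochberg adjustment over all genes tested and a threshold of 0.05. A joint fit of 12 libraries gave the difference between lines and the DMSO comparison. SE is the absolute log2 fold change divided by the square root of F. CPM per kilobase used exon unions of GENCODE 29, which may differ from the authors' annotation. The script was tested on simulated counts.

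The members and gene lists were chosen with earlier results of these data known. Values per library are given for members called with an absolute log2 fold change of at least 0.5 and a mean of at least 1 CPM in that line, and for some others to show their levels. Same-numbered libraries did not consistently deviate together (correlations −0.0584, 0.182 and 0.112 in H226 and −0.127, −0.165 and −0.0604 in ACHN). In H226 the 0.182 of replicate 2 was the highest correlation of any pair. The numbers were not used as pairs in the main fits. Alternatives were DESeq2 1.42.0, other scalings, other filters, a test for more than 1.2-fold, a replicate block and the omission of each library. All 12 columns were used. For the kidney markers, 1 gene and the sum over the list that holds it are not reported here.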

Additional observations from a re-analysis of the deposited data

Results flagged for a closer look

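For 14 members the SWTX-143 effect differed between the lines in the joint edgeR test. The difference, H226 effect minus ACHN effect on the log2 scale, was −0.80 ± 0.06, adjusted p = 2.19e-17 for NRP2, with the lines moving in opposite directions in 3 of 3 treated libraries each. It was 0.46 ± 0.06, adjusted p = 5.57e-10 for PLXNB2 and 0.40 ± 0.06, adjusted p = 2e-07 for SEMA3C, which were called higher in H226 and lower in ACHN. For members with the larger rise in H226 it was 0.80 ± 0.12, adjusted p = 1.77e-07 for EFNB3, 0.51 ± 0.09, adjusted p = 1.06e-05 for NRP1, 0.50 ± 0.07, adjusted p = 1.69e-07 for SEMA4B, 0.45 ± 0.08, adjusted p = 4.98e-06 for ROBO1, 0.36 ± 0.09, adjusted p = 0.00376 for SEMA3F and 0.59 ± 0.17, adjusted p = 0.00976 for PLXNB3. EPHA2 (0.47 ± 0.06, adjusted p = 3.38e-09) and SEMA5A (0.52 ± 0.15, adjusted p = 0.0217) fell further in ACHN. SEMA4D had −0.49 ± 0.10, adjusted p = 0.000162. EPHB1 (−1.63 ± 0.46, adjusted p = 0.00696) and SEMA3E (−1.92 ± 0.57, adjusted p = 0.0115) rested on 38 and 33 counts in the 6 H226 libraries. The ACHN call of PLXNB2 was lost in 10 of 13 alternatives.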

How the results depend on the processing

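Under each alternative the effects of called members kept their direction. For 53 effects, the 32 and 18 called ones and EFNB3, EPHA6 and ROBO1 in ACHN, 611 values under an alternative stayed on the same side of the threshold, 74 lost the call and 1 gained it. For the 14 called differences between lines 238 stayed and 12 lost it. Counting all members, 10 gained a call within a line under some alternative, 21 times in all. Against 24 higher and 8 lower in H226 and 7 higher and 11 lower in ACHN, a test for more than 1.2-fold called 11 and 4, and 2 and 4. With a mean of at least 5 CPM required, 2 negative differences between lines were called in place of 4, since fewer genes are tested. Leaving out 1 library gave 20 to 25 higher and 7 to 9 lower in H226, 5 to 8 and 8 to 11 in ACHN, and 8 to 14 positive and 2 to 5 negative differences, with 2 without H226 DMSO replicate 1. With a replicate block the counts were 25 and 9 in H226, 6 and 10 in ACHN and 10 and 4 for the difference, where 5744 genes in H226 and 2146 in ACHN were called in all; the block lost the NRP1 (0.12, adjusted p = 0.0642) and PLXNB2 (−0.11, 0.0894) calls in ACHN and gained PLXNA3 and NTN4 in H226. The same-numbered libraries did not correlate best with each other throughout. Over all genes, DESeq2 called 638 higher and 854 lower in ACHN beside 1137 and 1264, and the 1.2-fold test called 843 and 953 in H226 beside 2567 and 2919, and 107 and 208 in ACHN. The cause was not tested. The depth limits members of a few CPM, such as EPHB3 and EPHA6.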
